A study of Mus musculus with 10 samples.

Results

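The Hnrnp and SR splicing factor genes were taken by symbol, as every gene in the deposited tables whose name begins with Hnrnp or with Srsf and a digit. There were 31 such genes among 17919, of which 20 were Hnrnp and 11 were Srsf genes. Their levels were read in cultured neural stem cells. The cells came from ICR mice, taken from ventral midbrain at embryonic day 10, received a lentivirus that carried Lin28a or served as mock control, and were passaged every 4 days. The groups were Lin28a P3 and control P3, and Lin28a P1 and control P1, in RNA-seq, and Lin28a P3 and control P3 in polysome-seq, the sequencing of RNA carried on ribosomes (P1 and P3 are passages 1 and 3). All groups shared the strain, the tissue, the culture and a lentiviral transduction, and differed in the transgene, the passage or the assay. The promoter of the lentivirus, the number of embryos pooled and the share of transduced cells were not stated.

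Each group held 1 library, so no test was run, and every difference below describes these libraries alone. Values are FPKM in RNA-seq (fragments per length of transcript and per size of library) and RPKM in polysome-seq (reads scaled in the same way). A log2 ratio is the difference of log2(value + 1), and a gene is called higher or lower when it passes 1.5-fold or 2-fold on that scale. Beside the main counts of members, the share over all genes tested is given. Total depth is unknown, and no counting interval can be given.

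hnRNP proteins are RNA-binding proteins that coat nascent transcripts and often repress the use of nearby splice sites. SR proteins carry an RNA recognition motif and a tail rich in arginine and serine, bind exonic enhancers and recruit the spliceosome, and their tail is phosphorylated by the Srpk and Clk kinases. Many members of both groups hold their own amount in check by splicing in exons that send the transcript to nonsense-mediated decay. In developing brain the balance among such factors shapes the exons that neural progenitors and neurons use. Lin28a is an RNA-binding protein of stem cells that blocks let-7 microRNA maturation, and in human cells Lin28 also binds mRNAs of splicing factors, those of hnRNP F and TDP-43 among them.

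The Lin28a transcript followed the labels, with 104 FPKM in Lin28a P3 against 0.0620 in control P3, and 478 in Lin28a P1 against 0.128 in control P1. In polysome RNA it reached 17.9 RPKM in Lin28a and was at the lowest listed value in control. All 12 neural stem cell markers were detected, with Sox2 at 372 FPKM in Lin28a P3, 390 in control P3, 260 in Lin28a P1 and 262 in control P1. With passage 8 of the 12 were higher and 4 lower in each culture; the lower ones were Nes (-0.81 in Lin28a and -1.17 in control), Prom1 (-1.17 and -2.31), Msi1 (-0.55 and -0.82) and Hes1 (-0.58 and -0.65). Summed levels of 15 neuron markers were 596 and 361 FPKM in Lin28a P3 and control P3, and 1150 and 1380 FPKM in Lin28a P1 and control P1. Those of 10 astrocyte markers were 2280 and 4930 FPKM in Lin28a P3 and control P3, and 316 and 409 FPKM in Lin28a P1 and control P1. Those of 13 oligodendrocyte markers were 1430 and 2350 FPKM in Lin28a P3 and control P3, and 113 and 188 FPKM in Lin28a P1 and control P1. All 10 microglia markers stayed under 1 in every library.

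Most of these genes lay far above the typical gene. The 30 members with an estimate in every library had a median of 81.6 FPKM in Lin28a P3 and 77.2 in control P3, and 157 FPKM in Lin28a P1 and 135 in control P1, while the median of all 17919 genes lay between 5.93 and 6.08 FPKM. Together those 30 genes made up 0.773% of all FPKM in Lin28a P3 and 0.627% in control P3, and 1.32% in Lin28a P1 and 1.18% in control P1. Hnrnpk, whose protein binds C-rich RNA, Hnrnpa1, a repressor of exon inclusion, and Hnrnpa2b1, known for mRNA transport in neurons and glia, held the top 3 places in all 4 RNA-seq libraries. Hnrnpk was at 494 and 456 FPKM in Lin28a P3 and control P3, and at 595 and 591 FPKM in Lin28a P1 and control P1. Hnrnpa1 was at 520 and 427 FPKM in Lin28a P3 and control P3, and at 505 and 477 FPKM in Lin28a P1 and control P1. Hnrnpa2b1 was at 401 and 347 FPKM in Lin28a P3 and control P3, and at 627 and 561 FPKM in Lin28a P1 and control P1. Hnrnpa1 thus led in Lin28a P3, Hnrnpk in both control libraries and Hnrnpa2b1 in Lin28a P1, and without replicates the order of these 3 genes cannot be set against their spread.

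At the low end stood Srsf12, Srsf4 and Hnrnpr. Srsf12, an SR-like protein that can repress splicing, had 4.36 and 4.16 FPKM in Lin28a P3 and control P3, and 4.97 and 6.57 FPKM in Lin28a P1 and control P1. Srsf4, an SR protein with a pair of RNA recognition motifs, had 12.8 and 12.2 FPKM in Lin28a P3 and control P3, and 19.3 and 19.9 FPKM in Lin28a P1 and control P1. Srsf12 was the member nearest the median of all genes, at percentile 44.6 in control P3 and 51.6 in control P1. The plot of RNA-seq levels shows these places for each gene, and over the 4 libraries the members ranged from percentile 44.6 to 99.5 of all genes.

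**Figure D1:**
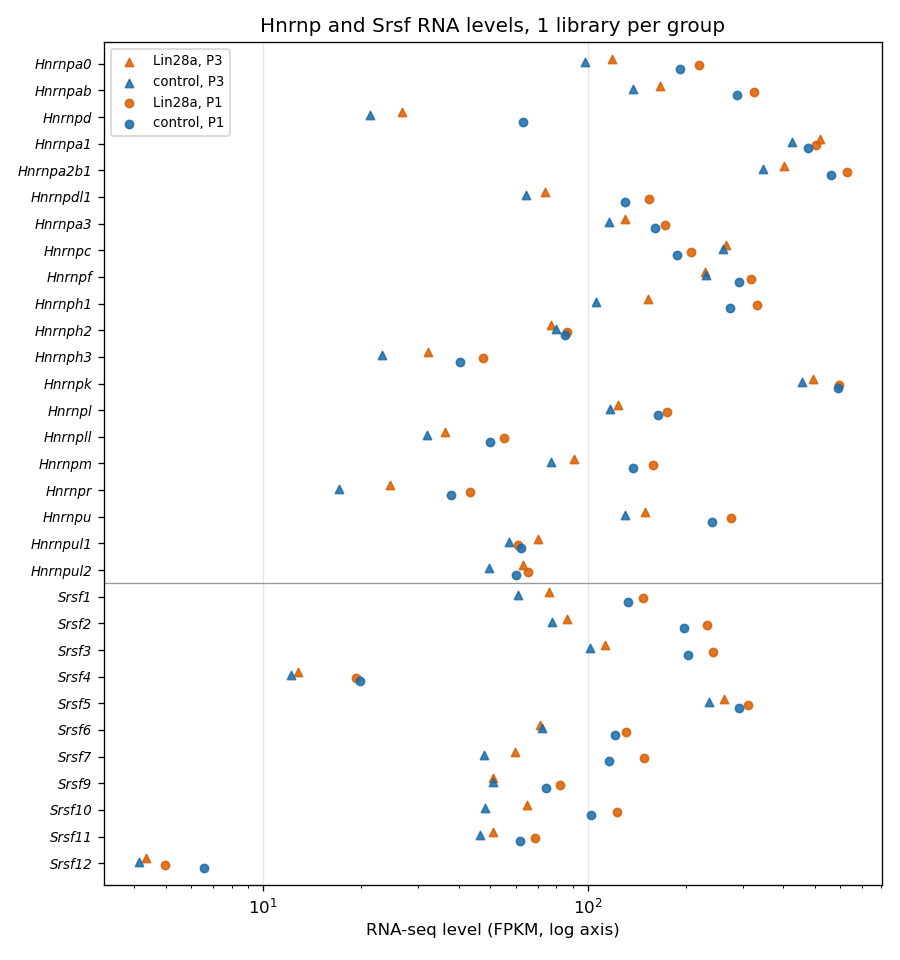
RNA-seq level of each Hnrnp (above the line) and Srsf gene (below it) in FPKM on a log axis, 1 point per library; triangles are P3, circles P1, orange Lin28a and blue control. For most genes both P3 points lie left of both P1 points; Hnrnpc is the reverse, and Hnrnpd has no Lin28a P1 point because it had no estimate there.

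With passage most members had less RNA, in the Lin28a culture and in the control culture. Of 30 genes with an estimate in Lin28a 27 were lower at P3 by any amount, against 51.1% of 12832 tested genes. Past 1.5-fold 15 were lower, against 14.7%, and past 2-fold 5 were lower, against 4.75%; none was higher past 1.5-fold, against 18.1%. With the files rescaled to the same sum, 13 members were lower past 2-fold, against 7.65% of all genes, and Hnrnpc alone was higher, against 35%. The median was -0.61 over the members, -0.55 over the Hnrnp genes and -0.87 over the Srsf genes, beside -0.01 over all genes. Without a sorted population, fewer cells of a type that holds much of these RNAs and less RNA per cell cannot be told apart.

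The control culture, which shares no library with the Lin28a culture, had a like pattern. Of 31 genes, 30 were lower at P3 than at P1 by any amount, where 50.3% of all 12973 tested genes were lower. Past 1.5-fold 18 members were lower, against 19.7% of all genes, and past 2-fold 9 were lower, against 8.02%. None was higher past 1.5-fold, against 22.5% of all genes. After the same rescaling 16 were lower past 2-fold, against 14.3%. The median log2 ratio was -0.69 over the members, -0.66 over the Hnrnp genes and -0.74 over the Srsf genes, beside -0.0043 over all genes. Among genes at 20 FPKM or more in both libraries, the level where most members lie, 15 of 28 members were lower past 1.5-fold in Lin28a, against 8.53% of 3810 genes, and 16 of 28 in control, against 10.3% of 3701 genes.

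**Figure D2:**
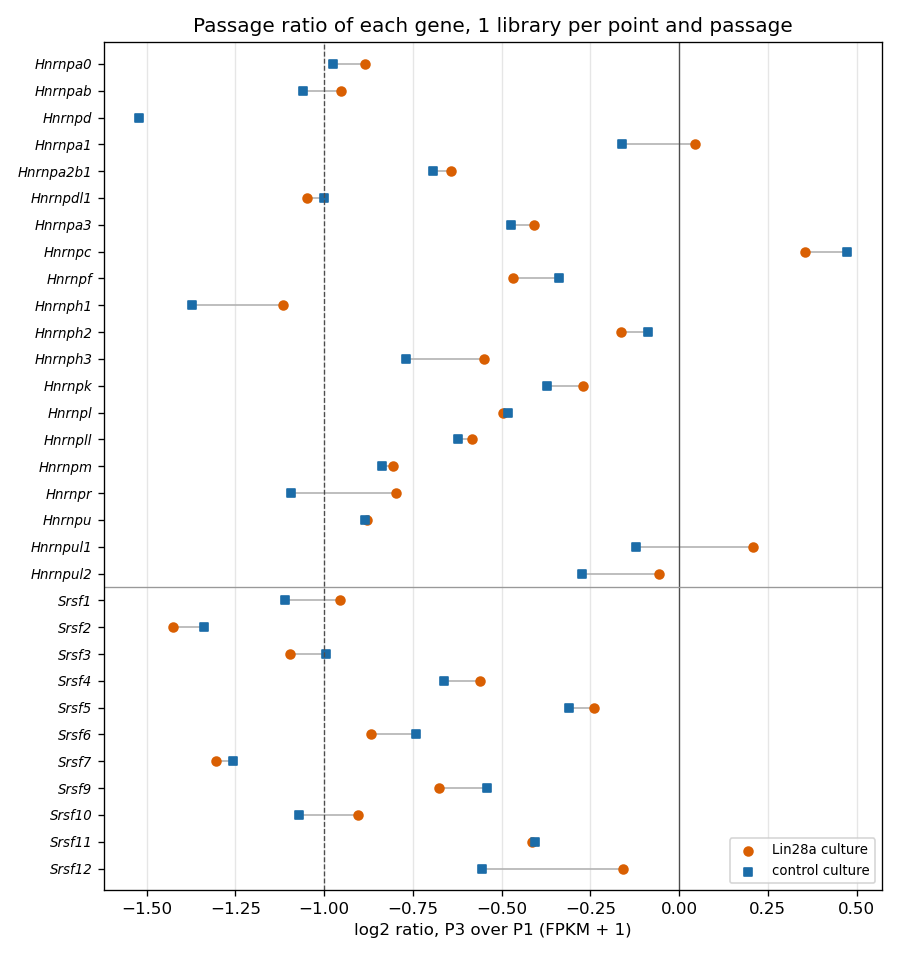
log2 ratio of P3 over P1 for each gene in the Lin28a culture (circles) and in the control culture (squares), joined by a line; the dashed line marks a 2-fold lower level. All points but those of Hnrnpc, and of Hnrnpul1 and Hnrnpa1 in Lin28a, lie left of 0 (after rescaling to the same sum, only those of Hnrnpc do not), and Srsf2, Srsf7, Hnrnph1 and Hnrnpdl1 are past 2-fold in both cultures.

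Srsf2 and Srsf7 had the lowest passage ratios of all members in Lin28a, and only Hnrnpd and Hnrnph1 were lower than Srsf2 in control. Srsf2, the SC35 protein that defines exons and marks nuclear speckles, was at 86.1 FPKM at P3 and 233 at P1 in Lin28a, and at 77.6 FPKM at P3 and 198 at P1 in control. Its ratios were -1.42 in Lin28a and -1.34 in control, and both P3 values lay well under both P1 values. Srsf7, an SR protein with a zinc knuckle that also serves mRNA export, was at 59.8 FPKM at P3 and 149 at P1 in Lin28a, and at 48.0 FPKM at P3 and 116 at P1 in control (-1.30 and -1.26). Only 2.05% of tested genes in Lin28a and 4.99% in control had a lower ratio than Srsf7.

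Srsf1, the SF2/ASF splicing factor, was at 76.0 FPKM at P3 and 148 at P1 in Lin28a, and at 61.0 FPKM at P3 and 133 at P1 in control (-0.96 and -1.11). Srsf3, a small SR protein that works in splicing and export, was at 113 FPKM at P3 and 243 at P1 in Lin28a, and at 102 FPKM at P3 and 203 at P1 in control (-1.10 and -0.99). Its row carries the identifier NR_036613, a transcript of Srsf3 that RefSeq lists as non-coding beside the coding NM_013663, and how far the value covers the coding form was not stated. Srsf10, which represses splicing when it is dephosphorylated, was at 65.0 FPKM at P3 and 123 at P1 in Lin28a, and at 48.2 FPKM at P3 and 102 at P1 in control (-0.91 and -1.07). For these 3 genes too, both P3 values lay under both P1 values.

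Other SR genes had smaller ratios. Srsf6 stood at -0.87 in Lin28a and -0.74 in control, and Srsf9 at -0.68 and -0.54. Srsf4 was at -0.56 and -0.66, Srsf11 at -0.42 and -0.41, and Srsf12 at -0.16 and -0.55. The most abundant SR gene, Srsf5, was among the least displaced, with 263 FPKM at P3 and 311 at P1 in Lin28a, and 236 FPKM at P3 and 293 at P1 in control (-0.24 and -0.31).

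Among the hnRNP genes, the A/B family had 4 of 6 genes lower past 1.5-fold in Lin28a and 1 higher (median -0.76), and 5 of 7 lower past 1.5-fold in control (median -0.97), against the 14.7% and 19.7% of all genes given above. Hnrnpab, which binds DNA as well as RNA, was at 167 FPKM at P3 and 325 at P1 in Lin28a, and at 138 FPKM at P3 and 289 at P1 in control (-0.95 and -1.06). Hnrnpa0 was at 119 FPKM at P3 and 220 at P1 in Lin28a, and at 97.7 FPKM at P3 and 193 at P1 in control (-0.88 and -0.97). Hnrnpdl1, the older symbol of Hnrnpdl (NM_016690), was at 74.1 FPKM at P3 and 154 at P1 in Lin28a, and at 64.3 FPKM at P3 and 130 at P1 in control (-1.05 and -1.002). Hnrnpdl1 just passed 2-fold in control, while Srsf3 at -0.99 just missed it. Hnrnpa2b1 (-0.64 and -0.69) and Hnrnpa3 (-0.41 and -0.47) were lower by less, and Hnrnpa1 hardly differed (0.04 in Lin28a and -0.16 in control).

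Hnrnpd, the AUF1 protein that binds AU-rich elements and speeds mRNA decay, was at 26.8 FPKM in Lin28a at P3 and at the lowest listed value, 4.8e-07, at P1, which was read as no estimate. In control it had the lowest ratio of all members, -1.52, with 21.4 FPKM at P3 and 63.2 at P1. The Lin28a P1 table held 2 genes, Hnrnpd among them, that were at that value there and at 20 FPKM or more in the other 3 RNA-seq libraries. No ratio is given for Hnrnpd at P1 between the viruses or between passages in Lin28a.

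Hnrnph1 led the F/H family, whose proteins bind runs of G. It was at 153 FPKM at P3 and 333 at P1 in Lin28a, and at 106 FPKM at P3 and 275 at P1 in control (-1.12 and -1.37). Its close relatives differed in size of ratio: Hnrnph3 was at -0.55 and -0.77, Hnrnpf at -0.47 and -0.34, and Hnrnph2, an X-linked gene, at -0.16 and -0.09. Hnrnph2 was at 77.2 FPKM at P3 and 86.5 at P1 in Lin28a, and at 79.8 FPKM at P3 and 84.9 at P1 in control. These genes are alike in sequence, and how shared reads were counted was not stated.

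Hnrnpr, whose protein carries β-actin mRNA in motor axons, was at 24.5 FPKM at P3 and 43.4 at P1 in Lin28a, and at 17.2 FPKM at P3 and 37.8 at P1 in control (-0.80 and -1.09). Hnrnpm, which binds GU-rich RNA, had ratios of -0.81 in Lin28a and -0.84 in control. Hnrnpu, the scaffold attachment factor A of chromatin, was at 150 FPKM at P3 and 277 at P1 in Lin28a, and at 130 FPKM at P3 and 241 at P1 in control (-0.88 and -0.89). Its relatives Hnrnpul2 (-0.06 and -0.27) and Hnrnpul1 (0.21 and -0.12) did not share that difference. The CA-repeat binding Hnrnpl (-0.50 and -0.48), its paralog Hnrnpll (-0.58 and -0.62) and Hnrnpk (-0.27 and -0.37) were lower within or just past 1.5-fold.

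Hnrnpc, whose tetramers bind U-rich stretches and measure the length of nascent RNA, was the only member higher at P3 in both cultures. It was at 266 FPKM at P3 and 208 at P1 in Lin28a, and at 261 FPKM at P3 and 188 at P1 in control. Both P3 values lay above both P1 values, with ratios of 0.36 and 0.47, neither past 1.5-fold.

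Promoters of Srsf2 and Srsf7, which were lower past 2-fold with passage in both cultures, and of Hnrnpc, which was not, are shown as the 250 bases before the annotated start, from RefSeq on GRCm38.p6 (the deposited values used mm9). Capitals mark CCGGAAG, the core of sites for ETS factors; neither it nor CACGTG, the E box of Myc and related factors, was found on either strand in the stretches that have no capitals. The stretches lie on the minus strand at chr11:116853095-116853344 (Srsf2), chr17:80207306-80207555 (Srsf7) and chr14:52104022-52104271 (Hnrnpc).
Srsf2: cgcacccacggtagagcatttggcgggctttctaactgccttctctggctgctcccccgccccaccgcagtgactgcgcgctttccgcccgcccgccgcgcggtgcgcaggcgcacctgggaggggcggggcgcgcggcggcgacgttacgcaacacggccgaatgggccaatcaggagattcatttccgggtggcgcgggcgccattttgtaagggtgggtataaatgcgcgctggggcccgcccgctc
Srsf7: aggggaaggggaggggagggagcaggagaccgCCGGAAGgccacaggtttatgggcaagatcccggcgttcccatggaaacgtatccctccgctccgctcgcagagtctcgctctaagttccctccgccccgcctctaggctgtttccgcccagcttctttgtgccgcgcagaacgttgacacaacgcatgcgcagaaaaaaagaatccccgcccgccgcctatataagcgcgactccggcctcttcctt
Hnrnpc: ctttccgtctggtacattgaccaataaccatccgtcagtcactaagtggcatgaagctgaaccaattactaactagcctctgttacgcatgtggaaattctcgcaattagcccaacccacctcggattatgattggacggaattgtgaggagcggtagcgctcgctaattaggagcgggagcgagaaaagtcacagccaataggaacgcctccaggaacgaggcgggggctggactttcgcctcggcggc
G and C made up 69.6% of the Srsf2 stretch, 61.6% of the Srsf7 stretch and 52.8% of the Hnrnpc stretch. In windows that reach from 250 bases before to 50 bases after a start, available for 29 members, CCGGAAG on either strand occurred in 24.4% of 41 member windows and in 8.86% of all 32851 windows. Counted by gene, it occurred in 6 of 29 members (20.7%) and in 9.93% of 27025 genes. The 6 were Hnrnpd, Hnrnpf, Srsf4, Srsf5, Srsf7 and Srsf11, with passage ratios in control from -1.52 (Hnrnpd) to -0.31 (Srsf5). CACGTG occurred in 12.2% of the member windows and in 7.15% of all windows. Windows of a gene with several starts overlap, the motifs do not overlap each other, and a match describes letters in a window, not a bound site.

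The passage ratios of the members were alike in size in both cultures. Over 30 genes Pearson's r was 0.943 and Spearman's rho 0.938, and the cultures share no library. Over 12698 genes these were 0.915 and 0.898, and genes are not independent replicates. The passage change in Lin28a minus that in control had a median of 0.06 over the members and ran from -0.14 (Srsf9) to 0.40 (Srsf12). No member passed 1.5-fold in either direction, where 5.87% of 12698 genes were higher and 4.3% lower past that size. The Hnrnp genes had a positive difference in 14 of 19 cases and the Srsf genes in 5 of 11, against 49.8% of all genes.

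Other parts of the splicing machinery gave the following counts, from lists that held no member. The shares over all genes were 51.1% lower in Lin28a and 50.3% in control, with 14.7% and 19.7% lower past 1.5-fold. Of 17 hnRNP family genes under other symbols, 15 were lower at P3 in Lin28a and 15 in control, 7 and 9 of them past 1.5-fold (medians -0.47 and -0.65). They included Ptbp1, the repressor of neuronal exons, at -0.67 and -0.85, its neuronal paralog Ptbp2 at -0.70 and -1.17, and Tardbp, the gene of TDP-43, at -0.87 and -1.004. Ralyl, another of the 17, was under 1 FPKM in control P3 and entered there only through P1. Of 45 core spliceosome genes, 42 were lower in Lin28a and 41 in control, 11 and 12 of them past 1.5-fold (medians -0.37 and -0.39). The subunit gene Sf3b3 was the lowest of them, at -1.19 and -1.52. Nonsense-mediated decay genes were lower in 12 of 14 cases in each culture, 5 and 4 past 1.5-fold (medians -0.42 and -0.40).

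SR-related genes and SR protein kinases were lower in 14 of 19 cases in Lin28a and 16 of 20 in control (medians -0.36 and -0.38). Past 1.5-fold 4 were lower in each, against 14.7% and 19.7% of all genes, so the control count lay close to its share. The SR-like Tra2b (-1.18 and -1.04) and Tra2a (-1.12 and -0.94) were the lowest, and the kinase gene Srpk1 stood at -0.66 and -0.77. Srpk3 was higher past 2-fold in control (1.81), with 2.58 FPKM at P3 and 0.0216 at P1, so it entered only through P3. In Lin28a Srpk3 was at the lowest listed value at P1 and had no ratio. Tissue-specific splicing regulators were displaced most, lower past 2-fold in 7 of 23 cases in Lin28a and 13 of 23 in control (medians -0.80 and -1.37). Of all genes 4.75% and 8.02% were lower past 2-fold. Srrm3 in both cultures, and Rbfox1, Celf6 and Srrm4 in control, were under 1 FPKM at P3 and entered only through P1. Celf3 was at -1.98 and -3.57, Elavl2 at -2.00 and -3.23 and the neuronal microexon regulator Srrm4 at -1.82 and -2.80. In each culture 3 of the 23 were higher, 2 of them past 1.5-fold, against 18.1% and 22.5% of all genes. These 2 were Qk (0.93 in both cultures) and Mbnl2 (0.59 in Lin28a and 0.79 in control). Qk was at 504 FPKM at P3 and 265 at P1 in Lin28a, and at 538 and 282 in control. Several genes of this list are expressed mainly in neurons, whose marker sums are given above, and Elavl3 and Elavl4 are in both lists.

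Markers of cell division moved with passage as well. The 25 cell cycle genes summed to 1070 FPKM in Lin28a P3, 721 in control P3, 1530 in Lin28a P1 and 1300 in control P1. At P3 20 of them were lower in Lin28a and all 25 in control (medians -0.39 and -0.83), against 51.1% and 50.3% of all genes. The list was uneven in Lin28a, with ratios from -1.83 (Tyms) to 0.58 (Ccnb2). There the 10 genes lower past 2-fold, against 4.75% of all genes, were Mcm2 to Mcm7, Pcna, Tyms, Tk1 and Cdc6. The 5 higher ones were Ccnb2, Cenpa, Cdc20, Aurkb and Birc5, none past 1.5-fold. Neuron markers were lower in 15 of 15 cases in each culture (medians -1.11 in Lin28a and -3.09 in control), and all 10 astrocyte markers were higher (2.68 and 2.95). Oligodendrocyte markers had the largest medians of these lists, 4.57 in Lin28a (12 of 12 higher past 2-fold) and 4.86 in control (11 of 11). Of all genes 8.31% and 11.4% were higher past 2-fold. Several markers entered only through the passage where they were high, so the entry rule set their direction. Mag, Gpr17, Cldn11, Gfap and S100b in both cultures, and Sox10, Pdgfra and Opalin in Lin28a, were under 1 FPKM at P1. Neurod1 in both cultures, and Syt4, Nhlh1 and Nhlh2 in control, were under 1 FPKM at P3. Mog was under 1 in every library and did not enter. The part of these shifts in the members' ratios was not tested.

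**Figure D3:**
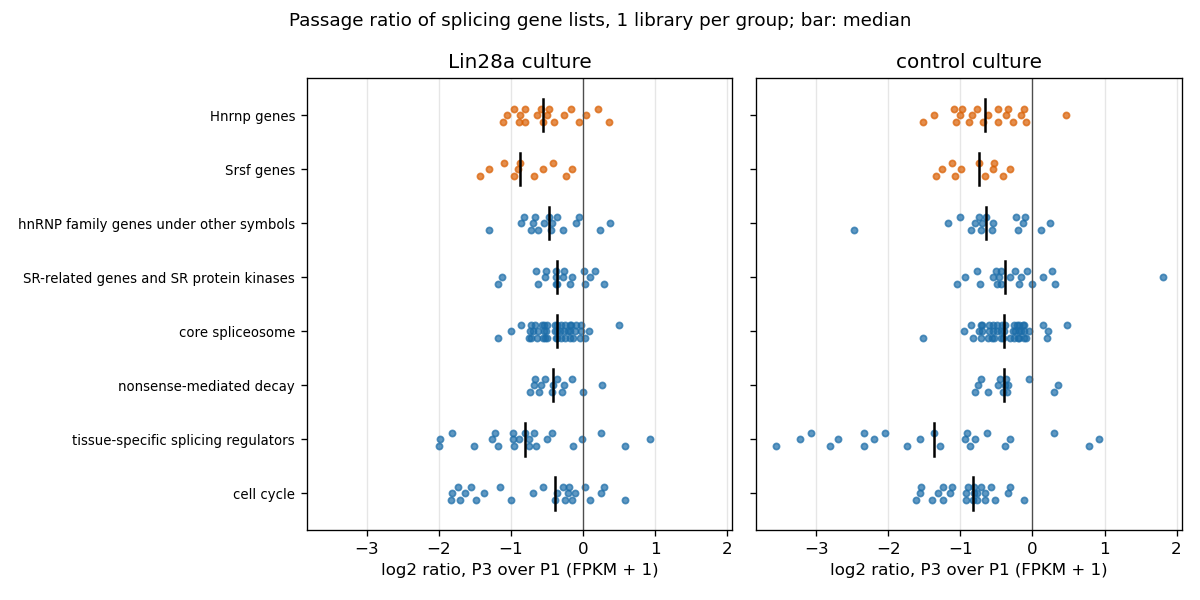
log2 ratio of P3 over P1 in the Lin28a culture (left) and the control culture (right) for the Hnrnp and Srsf genes (orange) and for other lists of splicing and cell cycle genes (blue); 1 point per gene, with a black bar at the list's median. Every list's median lies below 0 in both cultures, and that of the tissue-specific regulators differs most between them (-0.80 in Lin28a and -1.37 in control).

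Lin28a cultures had slightly more RNA of most members than control cultures at P1. Of 30 genes 27 were higher by any amount, against 48.4% of 12554 tested genes, but none passed 1.5-fold, which 0.566% of genes did upward and 0.932% downward. The median was 0.15 over the Hnrnp and also over the Srsf genes, beside -0.01 over all genes. The highest ratio was that of Srsf7 (0.36, 149 FPKM in Lin28a and 116 in control), followed by Hnrnph1 (0.28, 333 and 275) and Srsf3 (0.26, 243 and 203). Of the tested genes 3.07% had a higher ratio than Srsf7. Srsf12 (-0.34, 4.97 and 6.57), Srsf4 (-0.04) and Hnrnpul1 (-0.04) were the 3 lower genes.

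The difference at P3 was of like size, in libraries that do not overlap with those of P1. Of 31 genes 27 were higher in Lin28a, against 48.5% of 12702 tested genes, and again none passed 1.5-fold, which 5.39% of genes did upward and 6.31% downward. With the files rescaled to the same sum all 31 were higher, against 61.3% of genes, with a median of 0.31, and Hnrnph1 (0.64) and Hnrnpr (0.59) passed 1.5-fold, against 7.41%. The median was 0.22 over the Hnrnp genes and 0.15 over the Srsf genes, beside -0.01 over all genes. Hnrnph1 had the highest ratio (0.53, 153 FPKM in Lin28a and 106 in control), then Hnrnpr (0.49, 24.5 and 17.2) and Hnrnph3 (0.45, 32.1 and 23.2). Srsf10 stood at 0.42 (65.0 and 48.2), and all 7 genes of the A/B family were higher, from 0.17 (Hnrnpa3) to 0.31 (Hnrnpd). The 4 genes that were not higher were Hnrnph2 (-0.05), Srsf6 (-0.02), Hnrnpf (-0.01) and Srsf9 (-0.0007).

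At both passages 23 of 30 members were higher in Lin28a and 0 were lower, where 30.8% of 12132 genes were higher at both and 32.2% lower at both. Over the members, Pearson's r between these ratios was 0.469 and Spearman's rho 0.532, beside 0.365 and 0.353 over all genes. Genes at 20 FPKM or more in both P3 libraries were higher in Lin28a in 39.6% of 4158 cases and had a median of -0.07, beside a median of 0.20 for the 28 members at that level. Cell cycle genes were higher in Lin28a in 23 of 25 cases at P3 (median 0.63, 13 past 1.5-fold). At P1 24 of 25 were higher (median 0.23, 1 past 1.5-fold). Of all genes 48.5% were higher at P3 and 48.4% at P1, 5.39% and 0.566% past 1.5-fold. Neuron markers were higher in 14 of 14 cases at P3 (median 1.25) and lower in 15 of 15 at P1 (-0.26). At P3 Syt4, Nhlh1 and Nhlh2 were under 1 FPKM in control and entered only through Lin28a. The entry rule thus set their direction. Oligodendrocyte markers were lower in 12 of 12 cases at P3 (-0.61) and 8 of 8 at P1 (-0.72). Of the latter, Sox10 and Pdgfra were under 1 FPKM in Lin28a and entered only through control. Astrocyte markers were lower in 10 of 10 cases at P3 (-0.73) and 7 of 8 at P1 (-0.30). The part of these lists in the members' ratios was not tested.

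The core spliceosome genes had medians of 0.14 at P3 and 0.12 at P1, with 34 and 40 of 45 genes higher in Lin28a. Over all genes the shares were 48.5% and 48.4%. Tissue-specific regulators were higher at P3 in 18 of 22 cases, 11 of them past 1.5-fold (median 0.54), against 5.39% of all genes. Among them Elavl4 was at 1.72 and Celf3 at 1.56. Rbfox1, Celf6 and Srrm4 were under 1 FPKM in control P3 and entered there only through Lin28a. At P1 7 of 23 were higher (median -0.02). Elavl3 and Elavl4 also count among the neuron markers. Ptbp1 was at 108 FPKM in Lin28a and 76.9 in control at P3 (0.48), and at 172 and 139 at P1 (0.30). Ptbp2 was at 50.2 and 31.5 at P3 (0.65), and at 82.1 and 72.2 at P1 (0.18).

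**Figure D4:**
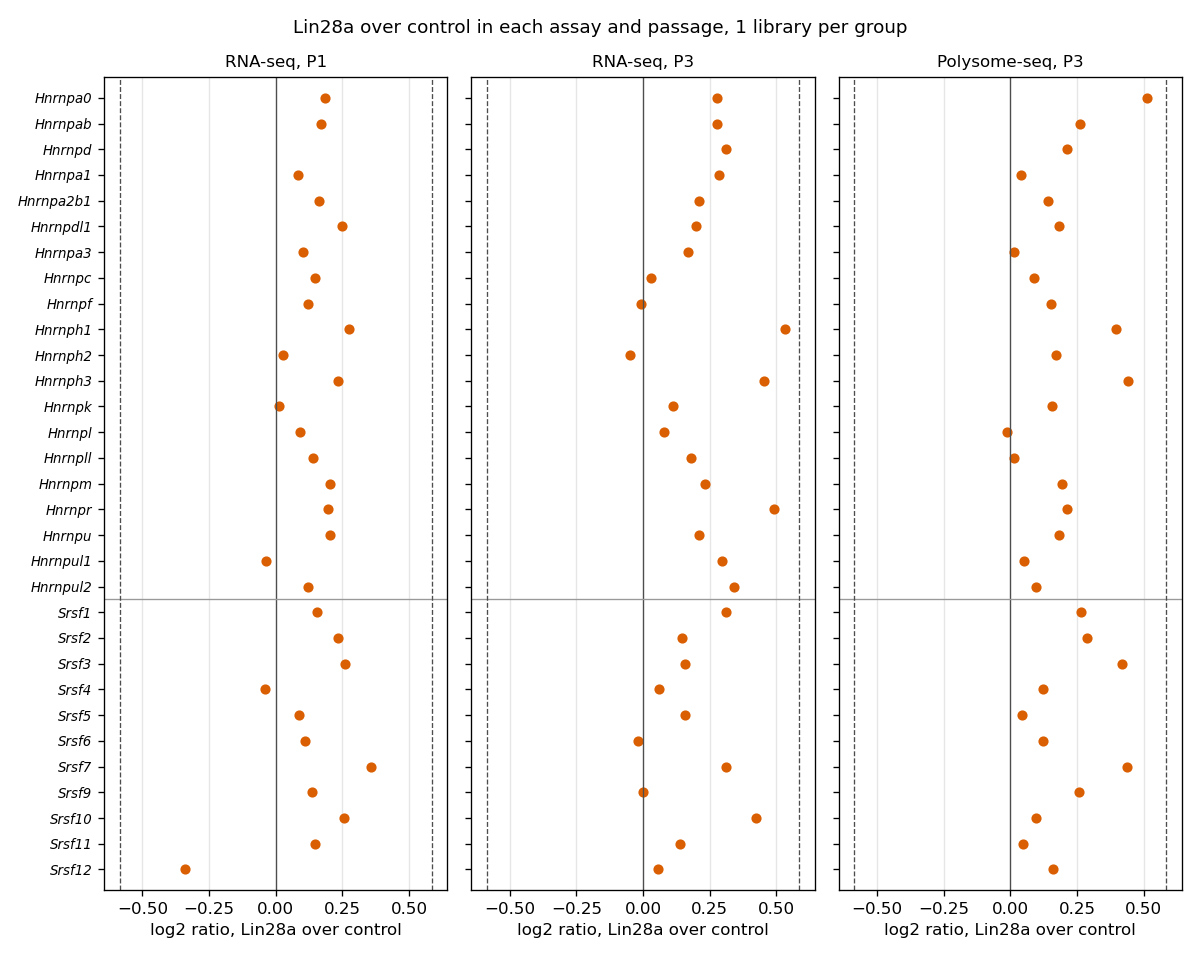
log2 ratio of Lin28a over control for each gene in RNA-seq at P1, RNA-seq at P3 and polysome-seq at P3; dashed lines mark 1.5-fold and the solid line equal values. Most points lie right of 0 in each panel and none passes 1.5-fold, though Hnrnph1 and Hnrnpr do at P3 after rescaling to the same sum; Hnrnph1 is at 0.28, 0.53 and 0.40.

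In polysome RNA at P3, 30 of 31 members were higher in Lin28a by any amount, against 62.8% of 12288 tested genes. None passed 1.5-fold, which 3.69% of genes did upward and 1.51% downward. With the files rescaled to the same sum, 8 members were lower, against 54.3% of genes. The median was 0.16 over the Hnrnp and also over the Srsf genes, beside 0.06 over all genes, so the distance from the other genes was smaller than in RNA-seq. Hnrnpa0, an A/B family protein that binds AU-rich elements, was the highest (0.51, 40.3 RPKM in Lin28a and 27.9 in control). Hnrnph3 (0.44, 10.7 and 7.63), Srsf7 (0.44, 32.4 and 23.7), Srsf3 (0.42, 27.8 and 20.6) and Hnrnph1 (0.40, 67.1 and 50.7) came next. At the low end were Hnrnpl (-0.01, 78.2 and 78.9), Hnrnpll (0.01, 20.4 and 20.2), Hnrnpa3 (0.01, 13.2 and 13.0) and Hnrnpa1 (0.04, 43.9 and 42.7).

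Among mRNAs known to be bound by Lin28 in human cells, Hnrnpf was at 36.2 RPKM in Lin28a and 32.5 in control polysomes (0.15), with 230 and 231 FPKM in RNA-seq at P3. Tardbp was at 15.2 and 13.2 RPKM (0.19), with 43.9 and 34.6 FPKM in RNA-seq. Neither gene passed 1.5-fold in either assay.

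The Lin28a ratio in polysome RNA minus that in total RNA at P3 was small for every member, and none passed 1.5-fold, which 5.5% of 11922 genes did upward and 2.23% downward. Of the members 19 had a negative difference, against 40.6% of all genes, and the medians were -0.05 over the Hnrnp and 0.10 over the Srsf genes, beside 0.07 over all genes. Srsf10 (-0.33), Hnrnpr (-0.28) and Hnrnpa1 (-0.25) were the lowest, and Srsf3 (0.26), Srsf9 (0.26) and Hnrnpa0 (0.24) the highest. These values assume that both assays drew on like cells, which the sources used here do not say. Polysome levels of the astrocyte markers summed to 220 RPKM in Lin28a and 297 in control, beside 2280 and 4930 FPKM in RNA-seq at P3. Oligodendrocyte markers summed to 201 and 294, beside 1430 and 2350, and neuron markers to 329 and 264, beside 596 and 361. Neural stem cell markers summed to 2060 and 2090, beside 4370 and 6270, and all genes to 287368 and 268307, beside 527477 and 571715. The part of cell makeup in these ratios was not tested.

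The order of the members differed between the assays. In polysome RNA Hnrnpab led, with 213 RPKM in Lin28a and 177 in control, followed by Hnrnpa2b1 (125 and 113), Hnrnpul1 (110 and 107) and Srsf9 (108 and 90.0). Hnrnpk, first or second in RNA-seq at P3, was at 52.2 and 46.7 RPKM, and Hnrnpa1 at 43.9 and 42.7. Over the 31 members the rank correlation of polysome and RNA-seq level was 0.625 in Lin28a and 0.655 in control. Values of the assays were counted in different ways and are set side by side only.

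Relative to RNA-seq the polysome values spread widely. In both cultures 4 of 31 members had a higher value in polysome RNA, against 29.6% of genes in Lin28a and 28.7% in control: Hnrnpul1 (107 RPKM and 57.2 FPKM in control), Srsf9 (90.0 and 50.9), Srsf4 (20.7 and 12.2) and Hnrnpab (177 and 138). At the other end, Hnrnpa1 stood at 42.7 RPKM and 427 FPKM in control, Hnrnpk at 46.7 and 456, Hnrnpa3 at 13.0 and 116, Hnrnpf at 32.5 and 231 and Hnrnpc at 38.1 and 261. The log2 polysome minus RNA value of Hnrnpa1 was -3.54 in Lin28a and -3.29 in control, lower than that of all but 1.04% and 1.61% of genes. The median was -1.18 over the members and -0.41 over all genes in Lin28a, and -1.08 and -0.49 in control. Hnrnpa1 and Hnrnpa3 have many processed pseudogenes, and how reads shared with such copies were counted in either assay was not stated, so these levels are uncertain.

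**Figure D5:**
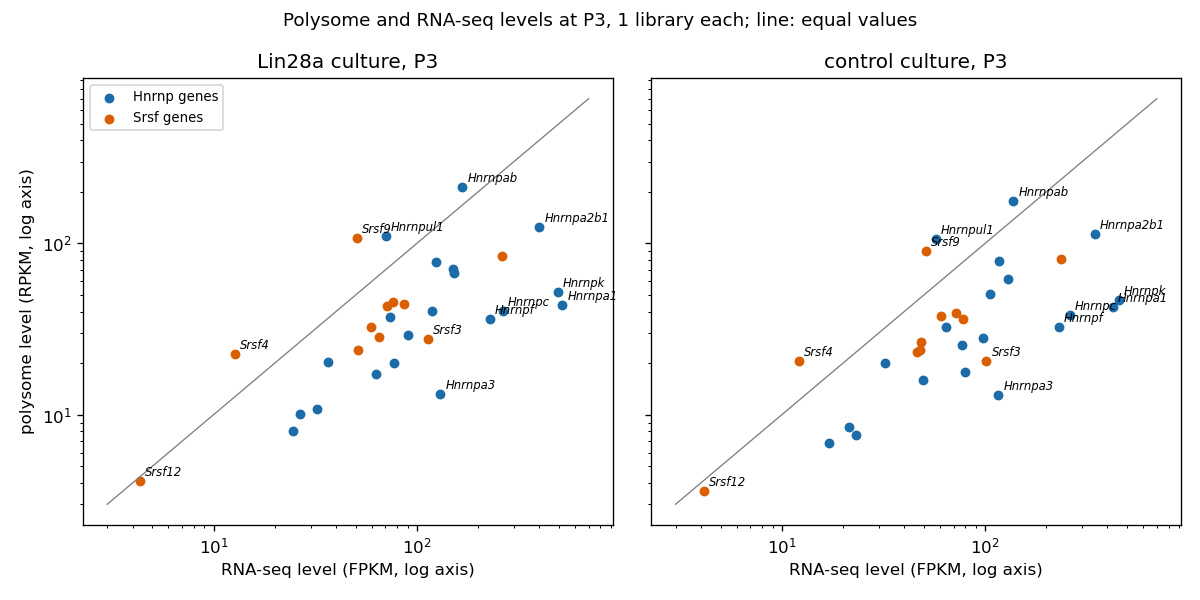
Polysome level (RPKM) against RNA-seq level (FPKM) of each Hnrnp (blue) and Srsf (orange) gene at P3 in the Lin28a (left) and control culture (right), on log axes, with a line of equal values; the scales were counted in different ways. Hnrnpab, Hnrnpul1, Srsf4 and Srsf9 lie above the line in both cultures, and Hnrnpa1 and Hnrnpk far below it.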

How the data were processed

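The study measured RNA by RNA-seq (4 libraries), polysome-seq (2) and small RNA sequencing (4, not used here), with 1 library per group named in the sample titles. RNA-seq values were deposited by the authors as 1 value per RefSeq gene and are read as FPKM. Polysome values, deposited in the same layout, are read as RPKM. The file headers name no unit, so both were inferred from the values and from the tools. Bowtie 1.0.0, TopHat2 2.0.6, Cufflinks 2.1.1 and build mm9 are named without a role, per the submitters' processing notes. Poly(A) selection is given in the sample descriptions and a total RNA kit in the library protocol. The summed FPKM ranged from 448682 to 571715 per RNA-seq library, and the total depth is unknown.

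Genes were compared as differences of log2(value + 1) if at 1 or more in at least 1 library of each pair. A value at the lowest listed value of its file (4.8e-07 in RNA-seq, 0.00331 and 0.00204 in the Lin28a and control polysome files) was taken as no estimate and left out. The comparisons numbered 7 and the alternatives 7. Named with values were members past 1.5-fold, the 3 highest and lowest by ratio or level, members without an estimate, and leading genes of the other lists. The members, lists and motifs were chosen with earlier results of these data known. All 31 members had an accession in the RefSeq gene table of GRCm38.p6, used for names. Protein features were planned and not analysed here. Counting was tested on simulated data. Tools were matplotlib 3.10.9, scipy 1.17.1, pandas 2.3.3, numpy 2.4.6 and Python 3.11.15.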

Additional observations from a re-analysis of the deposited data

Results flagged for a closer look

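Hnrnpul1, whose protein acts in mRNA export and DNA repair, differed in direction between the cultures: its passage log2 ratio was 0.21 in Lin28a (70.4 FPKM at P3 and 60.9 at P1) and -0.12 in control (57.2 FPKM at P3 and 62.4 at P1). With the files rescaled to the same sum it was lower in both cultures (-0.02 in Lin28a and -0.45 in control), so the difference in direction depends on the scale. The difference was not tested, since each value rests on 1 library, and neither ratio passed 1.5-fold.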

How the results depend on the processing

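No paired analysis was possible because each group held 1 library, so no groups share replicate numbers. A fit of virus with passage as a block, which would take their interaction as error, was not run. The members' medians kept their sign in all 7 comparisons under all 7 alternatives. Rescaling each file to the same sum, chosen after seeing the data, shifted the median of all genes with passage to -0.23 in Lin28a and -0.30 in control. The members' medians were then -0.84 and -1.02, with 13 and 16 lower past 2-fold, against 7.65% and 14.3% of all genes. In Lin28a 1 member was higher by any amount, against 35%. The passage change in Lin28a minus control was negative for 5 members, against 38.2%. After this rescaling Lin28a against control at P3 had a median of 0.31. There 2 members were higher past 1.5-fold, against 7.41% of genes, and 0 were lower by any amount, against 38.7%. In polysome RNA 8 members were lower, against 54.3% of genes. The polysome to RNA difference had a median of -0.24, with 4 members higher, against 34.7% of genes. Centring on the median of all genes left 1 member lower in Lin28a at P3 and 7 in polysome RNA. The medians over all tested genes were then 0.01 and -0.0031. With lowest listed values kept, Hnrnpd alone counted as lower past 2-fold in Lin28a at P1, and as 1 member higher past 2-fold in passage in Lin28a and in the passage change. Among genes at 20 or more, chosen after seeing the data, 1 member was lower in Lin28a at P1, against 48% of 4202 genes. Of the alternative values, 322 stayed within 1.5 times the count or 0.1 of the median, and 21 did not. Without replicates or known depth, differences under 1.5-fold cannot be set against the spread between cultures.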
